A study of Mus musculus with 46 samples.

Results

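Distal H3K4me3 peaks of induced pluripotent stem cells (iPSCs) were defined as H3K4me3 peaks of the iPSC library that were shorter than 5 kb and whose midpoint lay more than 5 kb from every start site of a protein-coding gene (mm9, GENCODE vM1). The rule kept 17363 of 36122 iPSC H3K4me3 peaks (48.07%). It left out 18588 peaks within 5 kb of a start site, 77 distal peaks of 5 kb or longer and 94 peaks on unplaced contigs. H3K4me3 and H3.3 were profiled while mouse embryonic fibroblasts (MEFs) carrying an Oct4-GFP reporter were turned into iPSCs with pMXs retroviruses for the factors Oct4, Sox2, c-Myc and Klf4 (OSKM). The reporter places EGFP behind the endogenous Pou5f1 gene, and all reprogramming cells share it. D0 stands for the starting fibroblasts and D3 for cells taken 3 days after infection without sorting. Cells that had lost the fibroblast surface protein Thy-1 on days 6 and 9 (D6T-, D9T-) or gained the pluripotency-associated antigen SSEA-1 on days 12 and 16 (D12S+, D16S+) followed the successful route, and D6T+, D9T+, D12S- and D16S- were the fractions left behind. The mouse embryonic stem cell line ESD3 and a transdifferentiation of MEFs towards blood progenitors with Scl, Lmo2, Runx1 and Bmi1 (MEF, D4, cKit+ and cKit-) had H3.3 libraries as well. H3K4me3 was available for D0, D3, D6T-, D9T-, D12S+, D16S+ and iPSCs. Sorted fractions are enriched populations, so a weak peak cannot be told apart from a strong peak in few cells.

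Trimethylation of histone H3 at lysine 4 is a mark of active and poised promoters, and its strong peaks usually sit on CpG-rich start sites. Weaker H3K4me3 away from annotated genes is found at enhancers, at start sites of noncoding transcripts and within some families of repeats. The histone variant H3.3 is placed into chromatin outside DNA replication, at transcribed genes and at regulatory elements, where nucleosomes are exchanged often.

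With 1 library per group, differences between groups could not be compared with any replicate error, and no test was made. Shares are given with 95% Wilson intervals, which cover counting error only. The iPSC H3K4me3 library held 35.4 M tags, and the other H3K4me3 libraries held 15.8 (D16S+) to 34.1 (D6T-) M tags and the H3.3 libraries 18.7 (D16S+) to 91.8 (cKit+) M tags. The D16S+ H3K4me3 list was the shortest of its kind, with 19633 peaks and 3.71% of its tags in peaks, against 30.37% in D0. The iPSC library fitted its label at the start sites of known markers. All 8 pluripotency markers examined (Nanog, Pou5f1, Sox2, Zfp42, Esrrb, Dppa5a, Tdgf1 and Lin28a) had H3K4me3 and H3.3 within 1 kb of a start site in iPSCs. In D0 all 8 fibroblast markers had H3K4me3 and H3.3. Of the pluripotency markers, 3 had H3K4me3 in D0 (Sox2, Esrrb and Lin28a) and 2 had H3.3 (Sox2 and Dppa5a). In iPSCs 6 of the 8 fibroblast markers still had an H3K4me3 peak, whereas Col1a1 was the 1 fibroblast marker with H3.3.

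The distal peaks were short and weak. Their median length was 637 bp, and 7226 (41.6%) had the minimum length of 500 bp. Their median score, the number of tags in the peak per 10 M tags of the library, was 9.18, compared with 47.5 for the 13235 iPSC H3K4me3 peaks of the same length limit within 1 kb of a protein-coding start site (promoter peaks). The median fold over input was 5.04, against a minimum of 4 for this antibody and a median of 7.24 at promoter peaks. The median distance to the nearest start site was 23.8 kb. By the midpoint, 9994 distal peaks (57.6%) lay between protein-coding genes, 6130 (35.3%) in introns and 1239 (7.14%) in exons. Peaks just inside the distance limit, 5 to 6 kb from a start site, had a median score of 10.3, and those just outside, at 4 to 5 kb, had 9.75. An H3.3 peak of iPSCs overlapped 59.4% and 59.1% of these neighbours, respectively. At the length limit, the 111 members of 4 to 5 kb had a median score of 97.9 and the 77 excluded longer peaks 170.8.

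A few sequences are shown as examples, chosen by score or history, and several are not typical in base composition. Each is up to 300 bases of the plus strand of mm9 at the midpoint of the peak, in lower case, with matches to the searched motifs in capitals. The motifs were searched on both strands and were octamer ATGCAAAT, Sox ACAATGG, Klf GGGNGTGG, Esrrb CAAGGTCA, CTCF CNAGGNGGC, AP-1 TGANTCA, TEAD GGAATGC, YY1 AAGATGGC, Nrf1 GCGCANGCG and Ets CCGGAAGT. The first 3 are from the highest-scoring distal peaks with H3K4me3 in no earlier library and with H3.3 in iPSCs and ESD3 but not in D0 or MEF.
Gm13225 region, chr4:145023571-145023870: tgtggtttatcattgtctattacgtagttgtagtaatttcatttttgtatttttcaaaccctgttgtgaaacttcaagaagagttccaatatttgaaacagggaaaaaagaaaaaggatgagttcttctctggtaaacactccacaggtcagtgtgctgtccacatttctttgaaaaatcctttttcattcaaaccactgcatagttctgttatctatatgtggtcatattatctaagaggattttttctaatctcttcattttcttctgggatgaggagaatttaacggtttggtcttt
Gm13138 region, chr4:146350316-146350615: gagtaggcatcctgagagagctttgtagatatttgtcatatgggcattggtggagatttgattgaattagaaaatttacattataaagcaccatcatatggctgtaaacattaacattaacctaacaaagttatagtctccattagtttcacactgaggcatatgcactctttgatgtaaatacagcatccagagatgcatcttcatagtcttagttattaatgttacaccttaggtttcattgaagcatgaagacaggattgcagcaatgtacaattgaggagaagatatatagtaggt
Tex14 intron, chr11:87294939-87295238: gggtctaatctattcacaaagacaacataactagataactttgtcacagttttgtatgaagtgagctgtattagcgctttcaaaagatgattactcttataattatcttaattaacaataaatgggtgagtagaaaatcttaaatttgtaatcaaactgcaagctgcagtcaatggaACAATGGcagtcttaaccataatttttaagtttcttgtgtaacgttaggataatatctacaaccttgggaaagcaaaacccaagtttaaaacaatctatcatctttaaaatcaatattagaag

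All 3 windows are AT-rich, with GC contents of 33.3%, 35.0% and 30.3% and 2, 0 and 2 CpGs, whereas the median GC content was 49.7% for the peaks with this H3.3 pattern and 52.0% for all distal peaks. The Gm13225 and Gm13138 regions belong to 56 distal peaks with high input, at 10.8 and 7.85 times the median input density of all iPSC H3K4me3 peaks. The next pair are from the highest-scoring distal peaks that had H3K4me3 in all 7 libraries. They hold 11 and 15 CpGs and also have high input, at 10.7 and 8.19 times the median.
Gm15319 region, chr8:20019541-20019840: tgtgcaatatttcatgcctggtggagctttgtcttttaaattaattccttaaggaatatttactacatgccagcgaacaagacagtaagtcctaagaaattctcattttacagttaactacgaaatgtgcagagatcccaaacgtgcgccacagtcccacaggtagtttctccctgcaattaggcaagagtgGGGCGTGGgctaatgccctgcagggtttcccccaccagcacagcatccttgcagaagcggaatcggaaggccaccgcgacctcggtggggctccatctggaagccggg
Scaf8 region, chr17:3083849-3084148: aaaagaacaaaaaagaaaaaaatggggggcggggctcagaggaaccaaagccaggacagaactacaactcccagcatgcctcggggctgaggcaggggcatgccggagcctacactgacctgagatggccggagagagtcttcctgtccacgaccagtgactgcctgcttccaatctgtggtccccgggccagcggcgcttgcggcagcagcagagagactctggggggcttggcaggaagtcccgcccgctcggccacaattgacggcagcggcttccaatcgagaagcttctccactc

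The following windows belong to the highest-scoring distal peaks whose nearest gene is on the pluripotency list, and hold none of the motifs.
Zfp281 region, chr1:138594193-138594492: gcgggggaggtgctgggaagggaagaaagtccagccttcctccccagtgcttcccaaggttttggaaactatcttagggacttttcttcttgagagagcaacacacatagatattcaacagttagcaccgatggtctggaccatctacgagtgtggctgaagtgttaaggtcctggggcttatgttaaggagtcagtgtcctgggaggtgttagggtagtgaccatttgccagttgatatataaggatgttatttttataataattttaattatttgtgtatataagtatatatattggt
Myc region, chr15:61870215-61870514: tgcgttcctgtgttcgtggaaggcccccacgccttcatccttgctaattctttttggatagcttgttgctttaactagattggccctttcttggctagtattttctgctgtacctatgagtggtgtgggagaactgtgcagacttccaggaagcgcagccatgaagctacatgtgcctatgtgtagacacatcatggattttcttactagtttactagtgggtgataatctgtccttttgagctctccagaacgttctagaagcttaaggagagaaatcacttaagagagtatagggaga

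The peak in the Esrrb intron was added after its values were seen, because it holds an octamer, the sequence bound by Oct4, and a Klf match.
Esrrb intron, chr12:87819907-87820206: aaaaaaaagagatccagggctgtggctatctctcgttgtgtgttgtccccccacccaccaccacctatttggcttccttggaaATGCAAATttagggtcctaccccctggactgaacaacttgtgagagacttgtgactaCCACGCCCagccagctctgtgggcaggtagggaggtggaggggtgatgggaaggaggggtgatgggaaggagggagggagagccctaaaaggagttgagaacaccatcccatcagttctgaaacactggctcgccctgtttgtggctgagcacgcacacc

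The last window, also added afterwards, is from the class of distal peaks that share a recurrent sequence, described further on. Here the capitals mark 3 sequences of 20 bases, which recur among the distal peaks, and each occurs 2 times in the window.
Cdh20 region, chr1:106916681-106916980: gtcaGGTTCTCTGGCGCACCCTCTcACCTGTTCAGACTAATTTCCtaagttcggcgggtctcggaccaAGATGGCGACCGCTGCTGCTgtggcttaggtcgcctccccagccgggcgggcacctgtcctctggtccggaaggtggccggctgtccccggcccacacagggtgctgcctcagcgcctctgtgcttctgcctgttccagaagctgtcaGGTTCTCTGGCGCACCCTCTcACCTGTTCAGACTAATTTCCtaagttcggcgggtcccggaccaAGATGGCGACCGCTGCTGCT

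The share of distal peaks overlapped by an H3.3 peak was highest in iPSCs. It was 53.1% (52.4 to 53.8, 9219 of 17363), compared with 64.0% of promoter peaks, 59.3% of all iPSC H3K4me3 peaks and 19.9% of 30825 flanks (windows of the same length 5 kb to either side that held no iPSC H3K4me3 peak). In ESD3 the share was 29.3% (28.6 to 30.0), close to the 32.5% of promoter peaks and the 32.4% of all peaks. In D0 it was 23.1% (22.4 to 23.7), while promoter peaks stood at 53.4% and all peaks at 37.5%. The share in iPSCs was thus 30.0 percentage points (29.1 to 31.0) above D0, but the comparison depended on the strength required of an H3.3 peak. When H3.3 peaks had to exceed input 4-fold instead of 2-fold, the share was 12.0% (11.5 to 12.5) in iPSCs and 14.5% (14.0 to 15.0) in D0, a difference of -2.49 points. The strict share in ESD3 was 15.8% (15.3 to 16.4). Promoter peaks had a 4-fold share of 13.5% in iPSCs and 38.2% in D0, so the low fold in iPSCs was not particular to distal peaks. With 4-fold peaks, the distal share divided by the promoter share was 0.887 in iPSCs and 0.379 in D0. H3.3 in iPSCs was therefore widespread but of low fold over input at distal and promoter peaks alike. The part of the library as a whole in the difference of -2.49 points was not tested.

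Cells at D3 had H3.3 at 18.2% of distal peaks, with a background over all iPSC H3K4me3 peaks of 30.4%. Among the Thy-1- cells the share was 25.5% on day 6 (background 39.1%) and 26.4% on day 9 (background 38.7%). SSEA-1+ cells followed with 23.2% on day 12 (background 31.4%) and 19.5% on day 16 (background 25.7%). The share was no higher in D16S+ than in D9T- and was higher by a wide margin in iPSCs, whose H3.3 list was also longer (81867 peaks, against 34062 in D16S+). With the 25637 top-scoring H3.3 peaks of each library the share was 33.7% in iPSCs, 17.4% in D16S+ and 13.5% in D0. Thy-1+ cells had 16.2% on day 6 (background 26.3%) and 20.4% on day 9 (background 31.7%), and SSEA-1- cells 32.1% on day 12 (background 46.7%) and 23.6% on day 16 (background 36.2%). In the transdifferentiation it was 15.9% in MEF (background 29.1%), 37.5% in D4 (background 58.2%), 3.62% in cKit+ (background 7.44%) and 3.73% in cKit- (background 8.28%). The cKit libraries were the lowest, with values close to those of their flanks (3.15% and 2.64%). The distal share was below the share over all peaks in each of the 16 libraries, and the number of H3.3 peaks differed widely between them, from 25637 to 108179.

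**Figure D1:**
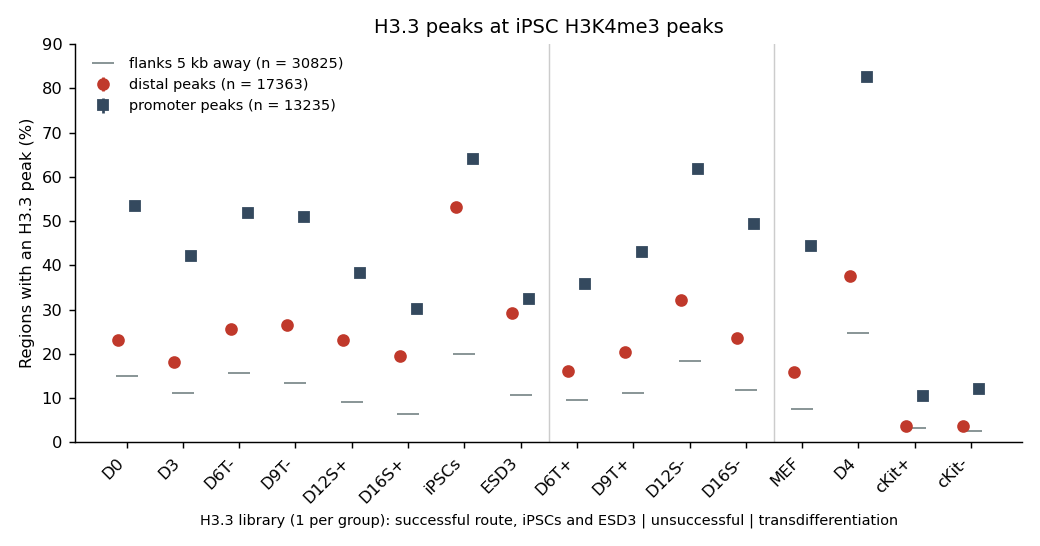
Share of distal peaks, promoter peaks and flanks (y axis, percent) with an H3.3 peak in each of 16 libraries (x axis), 1 library per group. Bars are 95% Wilson intervals and are mostly smaller than the symbols; distal peaks reach 53.1% in iPSCs, where promoter peaks stand at 64.0%, and 29.3% in ESD3, where they stand at 32.5%.

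Because each list reflects depth and enrichment of its library, the distal share was also divided by the promoter share of the same library, a measure chosen after the values were seen. The ratio was 0.43 in both D0 and D3, 0.49 and 0.52 in the Thy-1- cells of days 6 and 9, and 0.61 and 0.65 in the SSEA-1+ cells of days 12 and 16. It reached 0.83 in iPSCs and 0.90 in ESD3. Thy-1+ cells had ratios of 0.45 and 0.47 on days 6 and 9, and SSEA-1- cells 0.52 and 0.48 on days 12 and 16. The plain shares of the successful and unsuccessful fractions differed by 9.32 points (8.47 to 10.2) on day 6 and 6.02 points (5.14 to 6.91) on day 9, and by -8.96 points (-9.90 to -8.02) on day 12 and -4.13 points (-4.99 to -3.27) on day 16, with a mean of 0.564. The mean changed sign when 50% of the peak had to be covered (-0.467) and with 4-fold H3.3 peaks (-2.81), and the day 16 difference was 1.28 points with equal numbers of peaks. By contrast, the ratio was higher in the successful fraction on all 4 days, by 0.039, 0.044, 0.086 and 0.17. On days 12 and 16 the promoter share was lower in the successful fraction as well. It was 38.2% in D12S+ against 61.7% in D12S-, and 30.0% in D16S+ against 49.3% in D16S-. The higher ratio on these days is thus no gain in the distal share itself. Promoter peaks are longer (median 1873 bp), which gives an H3.3 peak more room to overlap. When only the 500 bp at the centre of each peak were used, the ratio difference was -0.024 on day 6 and -0.056 on day 9 but 0.32 on day 12 and 0.46 on day 16. The centre ratio was 0.995 in D12S+ and 1.15 in D16S+, compared with 0.680 in D12S- and 0.692 in D16S-, and reached 1.13 in iPSCs and 1.74 in ESD3. The direction on days 6 and 9 hence depended on the width compared, whereas on days 12 and 16 it was the same either way.

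**Figure D2:**
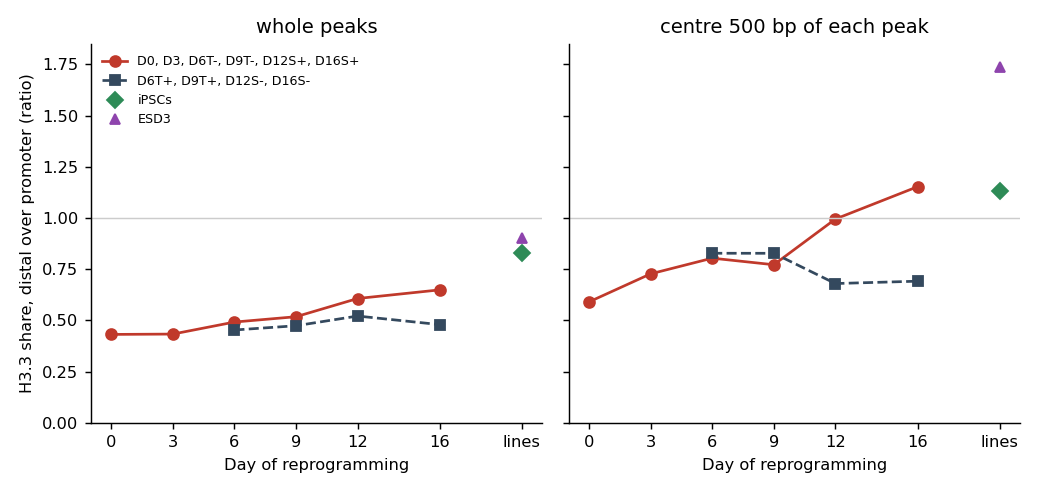
Ratio of the H3.3 share at distal peaks to that at promoter peaks (y axis) by day of reprogramming (x axis), for whole peaks (left) and for the centre 500 bp (right), 1 library per point. Successful fractions (circles) exceed unsuccessful fractions (squares) on days 12 and 16 in both panels, and on days 6 and 9 with whole peaks but not with the centre 500 bp.

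At the 2-fold limit for H3.3 peaks, most distal peaks with H3.3 in iPSCs had none in D0. H3.3 overlapped 6206 distal peaks (35.7%) in iPSCs but not D0, 3013 (17.4%) in both, 992 (5.71%) in D0 but not iPSCs and 7152 (41.2%) in neither. A set of 2449 (14.1%) had H3.3 in both pluripotent lines, iPSCs and ESD3, and in neither D0 nor MEF. The reverse, H3.3 in D0 and MEF but neither pluripotent line, held for 372 (2.14%). H3.3 was present in all 12 reprogramming libraries at 506 distal peaks (2.91%) and in none of the 12 at 5606 (32.3%). These combinations were not counted over all iPSC H3K4me3 peaks, where 59.3% had H3.3 in iPSCs and 37.5% in D0. The regions were chosen by an H3K4me3 peak of iPSCs, so the 2 directions are not on an equal footing. With 4-fold H3.3 peaks the distal share was 12.0% in iPSCs and 14.5% in D0.

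H3K4me3 at most distal sites, though not at most of the stronger ones, was not detected before the iPSC stage. No earlier library had an H3K4me3 peak at 9196 distal peaks (53.0%, 52.2 to 53.7), compared with 5.26% of promoter peaks. Among distal peaks scoring above the median of 9.18 this share was 34.8%. All 6 earlier libraries had one at 1062 (6.12%, 5.77 to 6.48), compared with 60.7% of promoter peaks. H3K4me3 of D0 covered 26.98% of the distal peaks (26.3 to 27.6, background 54.3%) and that of D3 23.6% (background 51.8%). The Thy-1- cells had 29.6% on day 6 (background 56.0%) and 27.02% on day 9 (background 53.8%), and the SSEA-1+ cells 27.2% on day 12 (background 53.1%) and 14.6% on day 16 (background 35.2%). Promoter peaks were covered in 88.5 to 91.4% from D0 to D12S+ and in 62.9% in D16S+, and flanks of distal peaks in 1.18 to 4.49%. A peak that appeared at a given stage and was kept in every later library was rare: 37 distal peaks from D3 on, 54 from D6T-, 57 from D9T-, 231 from D12S+ and 582 from D16S+. At 3106 distal peaks H3K4me3 was called in D12S+ and iPSCs but not in D16S+, the H3K4me3 library with the fewest tags and peaks, whose part in these counts was not tested. H3K36me3, a mark of transcribed gene bodies, overlapped 12.1% of distal peaks in D0 (background 12.7%, flanks 11.4%) and 4.74% in iPSCs (background 7.39%, flanks 3.34%).

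**Figure D3:**
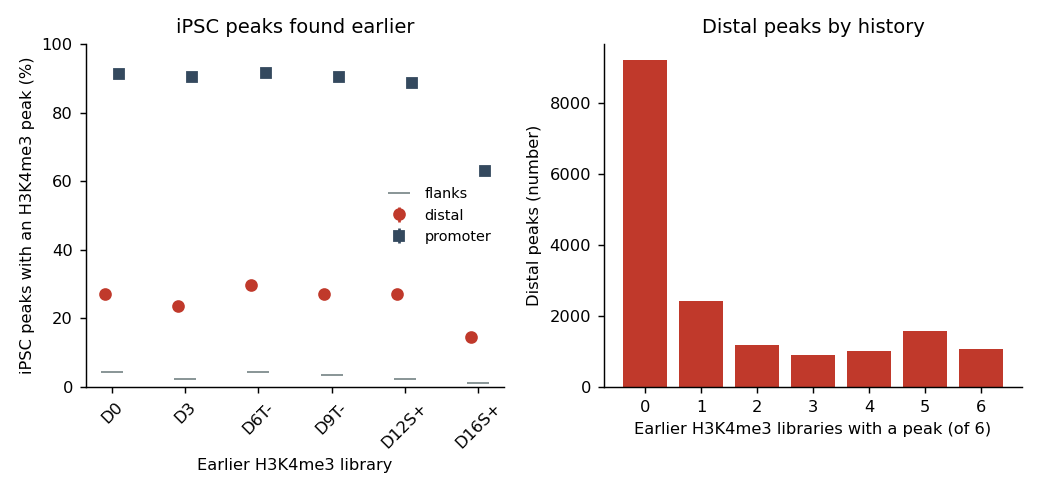
Left, share of distal and promoter iPSC H3K4me3 peaks and flanks (y axis, percent) with an H3K4me3 peak in each earlier library (x axis), with 95% Wilson intervals. Right, number of distal peaks (y axis) by how many of the 6 earlier libraries had a peak there (x axis), from 9196 with none to 1062 with all 6.

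History, score and sequence went together. Distal peaks present in all 7 libraries had a median score of 35.0 and a median length of 1604.5 bp, those in some earlier library 12.0 and 779 bp, and those seen in iPSCs alone 7.35 and 500 bp. The share with no earlier peak was 76.5% in the lowest score quartile and 20.6% in the highest. H3.3 of iPSCs was found at 65.3% of the peaks in all 7 libraries (62.3 to 68.1) and 46.9% of those in iPSCs alone (45.9 to 47.9), and H3.3 of D0 at 51.4% (48.4 to 54.4) and 12.5% (11.9 to 13.2). A weak peak can be missed in a library of lower enrichment, and how much of the iPSC-only class this accounts for was not tested. Among the 300-bp windows, 14.8% of distal peaks were CpG-rich (GC above 50% and a ratio of observed to expected CpG above 0.6), against 57.4% of promoter peaks and 0.535% of flanks. The CpG-rich share was 44.6% for peaks in all 7 libraries and 10.3% for those in iPSCs alone. It was 6.45% for the 2449 peaks with H3.3 in the pluripotent lines but neither fibroblast library, whose median GC content was 49.7%.

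A recurrent sequence was shared by 1249 distal peaks (7.19%, 6.82 to 7.59) on all 21 chromosomes. The class was found after the values were seen, by counting each run of 20 bases in the 300-bp windows, and holds a match on either strand to any of the 3 most frequent runs that share no stretch of 10 bases.
Run 1: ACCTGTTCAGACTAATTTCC
Run 2: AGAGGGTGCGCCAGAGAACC
Run 3: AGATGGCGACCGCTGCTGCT

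Run 1 was present in 1094 distal peaks (6.30%), run 2 in 1000 (5.76%) and run 3 in 915 (5.27%). In flanks they were present in 4, 4 and 5 windows, and in promoter peaks in 4, 3 and 5. The runs were picked for their frequency in these same distal windows, so this contrast follows in part from the choice. The peaks with a recurrent sequence lay far from genes (median 116 kb, against 22.0 kb for the other 16114 distal peaks), had a GC content of 63.3% against 51.7%, and 78.1% of them were intergenic. Their scores (median 9.75) and lengths (median 631 bp) were like those of the others (9.04 and 638 bp), and their input density was lower, 0.790 against 0.926 of the median of all iPSC H3K4me3 peaks. Reads mapping to several places had been removed before deposit, and how this bears on repeated sequence was not tested.

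H3K4me3 at these regions appeared late. Among each library's own distal H3K4me3 peaks, chosen by the same rule, 2 of 22195 in D0 held a recurrent sequence, as did 2 of 11760 in D3, and the Thy-1- cells had 4 of 20479 on day 6 and 3 of 16512 on day 9. The count was 127 of 11046 (1.15%, 0.967 to 1.37) in D12S+, 134 of 6913 (1.94%, 1.64 to 2.29) in D16S+ and 1249 of 17363 in iPSCs. The runs were picked in the iPSC windows, which favours the iPSC count. The part of this choice, of depth and of enrichment in these shares was not tested. None of these regions had H3K4me3 in all 7 libraries, and 1032 (82.6%) had it in iPSCs alone, which makes up 11.2% of the iPSC-only class.

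H3.3 was nearly absent from the same regions. An H3.3 peak of iPSCs overlapped 31 of the 1249 (2.48%), compared with 57.0% of the other distal peaks, and in ESD3 it was 6 (0.480%) compared with 31.5%. The highest share in any other library was 0.721% (D4, 9 regions), where 40.4% of the other distal peaks had H3.3. Across the 16 H3.3 libraries, 0 to 6 distal H3.3 peaks per library held a recurrent sequence. In the 9 libraries with none, the limit that a count of 0 allows was at most 0.0175% (cKit-, 3 of 17123 peaks). Of the motifs, the YY1 sequence was found in 75.3% of these windows, part of run 3 and its neighbouring bases, and in 3.13% of the other distal peaks.

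**Figure D4:**
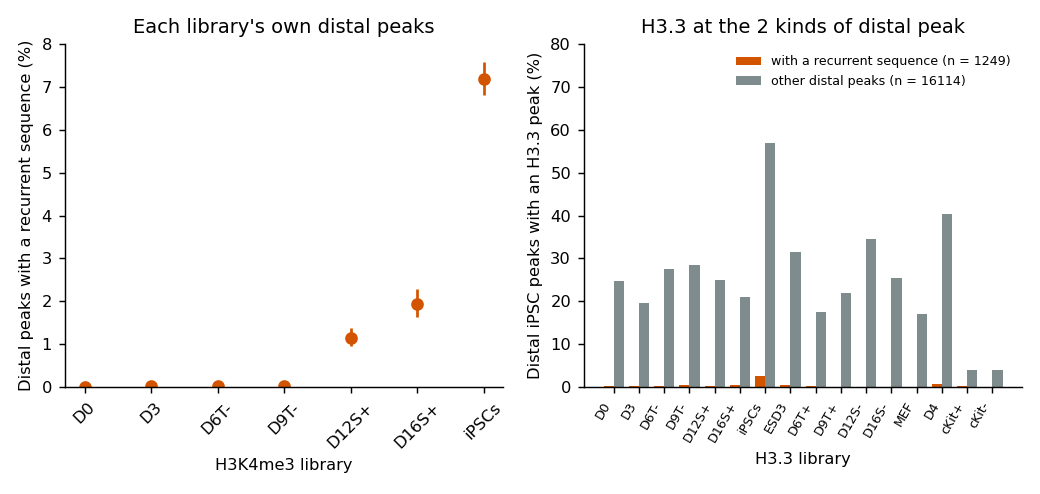
Left, share of each H3K4me3 library's own distal peaks (y axis, percent, 95% Wilson intervals) whose centre window holds a recurrent sequence (x axis, library). The sequences were picked in the iPSC windows. Right, share of the distal iPSC peaks with (orange) and without (grey) a recurrent sequence that have an H3.3 peak (y axis, percent) in each library (x axis), 2.48% against 57.0% in iPSCs.

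Of the motifs of the reprogramming factors, the octamer and the Sox sequence were less frequent at distal peaks than beside them, and the Klf sequence was more frequent. The octamer was found in 1.36% of distal windows and 4.31% of flanks, a difference of -2.95 points (-3.23 to -2.66), and in 0.793% of promoter peaks. Without the peaks that hold a recurrent sequence and their flanks the difference was -1.11 points. The Sox sequence, of which Sox2 binds variants, was in 3.73% of distal windows and 5.99% of flanks. The Klf sequence was in 14.1% and 8.72%, a difference of 5.41 points (4.81 to 6.02), CTCF in 6.30% and 2.83%, Ets in 0.806% and 0.195% and Nrf1 in 1.13% and 0.152%. AP-1, bound by Fos and Jun factors that are active in fibroblasts, was in 7.14% and 8.53%. The median GC content was 52.0% in distal windows and 44.7% in flanks, and its part in these shares was not tested. Within the distal peaks, the octamer was present in 2.45% of those with H3.3 in the pluripotent lines but neither fibroblast library and in 1.37% of those with H3.3 in D0, and AP-1 in 8.62% and 10.3%.

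Genes of the pluripotency network were often the nearest gene. The gene lists had been drawn up with earlier results of these data known, and the numbers are descriptions. Of 68 pluripotency genes in the annotation, 55 (80.9%) were the nearest gene of at least 1 distal peak, compared with 7917 of 22225 protein-coding symbols (35.6%), 24 of 53 fibroblast genes (45.3%), 16 of 30 epithelial genes (53.3%), 33 of 47 germ-layer genes (70.2%) and 17 of 31 imprinted genes (54.8%). How far this follows from the size of the gene-free space around each gene was not tested. The 282 distal peaks near pluripotency genes had H3.3 in iPSCs in 72.7% (67.2 to 77.6) and in D0 in 16.0% (12.1 to 20.7), compared with 53.1% and 23.1% over all distal peaks. For the 50 peaks near epithelial genes the shares were 86.0% (73.8 to 93.05) and 16.0% (8.34 to 28.5). Cdh1 and Epcam are on both lists and gave 14 of these peaks. For the 42 peaks near fibroblast genes the shares were 38.1% (with an upper bound of 53.2) and 31.0% (19.1 to 46.0), and for the 90 near germ-layer genes 21.1% (14.0 to 30.6) and 6.67% (3.09 to 13.8). The germ-layer genes, developmental regulators that are silent in pluripotent cells, had the most H3K4me3 in D0, at 58.9% of their distal peaks, while pluripotency genes had 24.5% and all distal peaks 26.98%. Peaks near the same gene are neighbours and not independent.

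**Figure D5:**
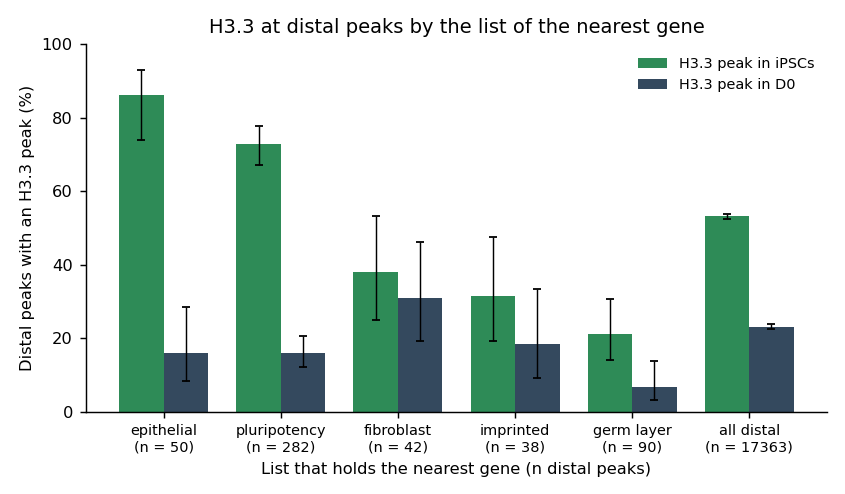
Share of distal peaks with an H3.3 peak (y axis, percent) in iPSCs (green) and D0 (dark) by the list that holds the nearest gene (x axis, with the number of distal peaks). Error bars are 95% Wilson intervals; pluripotency and epithelial genes have the highest iPSC shares, 72.7% and 86.0%, and all distal peaks stand at 53.1% in iPSCs and 23.1% in D0.

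Jarid2, a component of the Polycomb repressive complex PRC2, had the most distal peaks of all genes, with 32, of which 29 had H3.3 in iPSCs, 18 in ESD3 and 6 in D0. Among transcription factors on the pluripotency list, Zfp281 had 14 distal peaks, Sox2 and Tbx3 13 each, Tcf7l1 12, Esrrb 11 and Sall1 and Klf5 10 each. H3.3 of iPSCs overlapped 12 of 12 for Tcf7l1, 13 of 14 for Zfp281 and 9 of 11 for Esrrb, but 5 of 10 for Klf5. Nanog had 6 distal peaks, of which 4 had H3.3 in iPSCs and none in D0. Cdh1, which encodes E-cadherin, had 8, with H3.3 in iPSCs at 8, in ESD3 at 7 and in D0 at none. Near Foxd3 2 of 5 and near Fbxo15 0 of 5 had H3.3 in iPSCs.

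Single regions near pluripotency genes show several time courses. Scores for other libraries are the sums over the peaks that overlap the region, in tags per 10 M tags, and are not divided by length. Here and in the following paragraphs they are also not corrected for the enrichment of the library. The share of H3K4me3 tags in peaks was 30.37% in D0, 34.77% in D6T-, 3.71% in D16S+ and 12.72% in iPSCs. In the Cdh1 intron (chr8:109142327-109145747, 16.0 kb downstream of the start site) the iPSC H3K4me3 score was 73.9, and H3K4me3 had been 6.07 in D3, 23.9 in D12S+ and 31.0 in D16S+ with no peak in D0, D6T- or D9T-. H3.3 reached 282 in iPSCs and 142 in ESD3, after 6.80 in D9T- and 24.2 and 88.6 in the SSEA-1+ cells of days 12 and 16. The SSEA-1- cells of these days had 73.6 and 43.4. The overlapping H3.3 peaks covered 19.5 kb in iPSCs, 7.63 kb in ESD3 and 4.43 kb in D16S+. Because these lengths differ, the summed scores do not rank H3.3 within the region.

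In the Esrrb intron shown above (chr12:87818214-87821898, iPSC score 69.5), H3K4me3 was first called in D12S+ with 16.0 and stood at 25.3 in D16S+. H3.3 was called in D16S+ with 9.07, in iPSCs with 42.9 and in ESD3 with 48.6, and in no other library. Esrrb is an orphan nuclear receptor of the pluripotency network.

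The region 56.3 kb downstream of the Prdm14 start site (chr1:13059314-13062619, score 75) had H3K4me3 of 58.5 in D12S+ and 15.2 in D16S+. Its H3.3 was 33.1 in D12S+, 12.0 in D16S+ and 32.6 in iPSCs, with no peak in ESD3 or in the fractions left behind. Prdm14 is a regulator of naive pluripotency and of germ cells.

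The Tet2 intron (chr3:133178851-133182408, score 83.4) had H3.3 from an earlier stage. Tet2 encodes an enzyme that oxidises methylated cytosine. H3.3 was 6.68 in D0, absent in D3 and 94.4 and 125 in the Thy-1- cells of days 6 and 9, followed by 91.6 and 65.6 in the SSEA-1+ cells of days 12 and 16 and 80.7 in iPSCs. Thy-1+ cells had 9.31 on day 6 but 83.3 on day 9, and SSEA-1- cells had 110 and 79.3, so that the fractions differed on day 6 and had similar scores later. H3K4me3 was first called in D9T- with 30.0.

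The region 13.4 kb downstream of Sox2 (chr3:34560359-34564573, score 94.1) had H3K4me3 in all 7 libraries, between 34.0 (D3) and 94.1 (iPSCs). H3.3, by contrast, was called in iPSCs (48.8) and ESD3 (18.96) and in none of the other 14 libraries. A further peak 245 kb downstream of Sox2 (chr3:34792970-34795437, score 74.9) had no earlier H3K4me3 and H3.3 of 28.8 in iPSCs and 20.8 in D4. The strongest region of the list, 72.9 kb from Zfp281 (chr1:138591891-138596794, score 114), had H3.3 in all 16 libraries, from 6.01 in cKit- to 128 in iPSCs, and H3K4me3 went from 7.36 in D0, with none in D3, to 68.5 in D12S+ and 62.6 in D16S+. Near Myc, at the start site of the noncoding Pvt1 gene (chr15:61868436-61872293), the H3K4me3 score was instead highest early. It was 412 in D0 and 650 in D6T- against 44.2 in D16S+ and 108 in iPSCs. The share of H3K4me3 tags in peaks was also higher in D0 and D6T-, and its part in these scores was not tested. The Tet1 (score 69.4) and Sall1 (71.5) regions had H3.3 in iPSCs alone, with 23.7 and 10.3.

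Near fibroblast genes the median score of the 42 distal peaks was 8.265, against 10.5 for the 282 near pluripotency genes and 9.18 for all distal peaks. The highest-scoring of the 42 had 26.1. That peak, 19.6 kb from Fbln2, which encodes an extracellular matrix protein, had H3K4me3 between 40.5 and 66.7 from D0 to day 9 but of 9.40 on day 12 and 8.85 on day 16. It had no H3.3 in iPSCs. A peak assigned to Zeb1 (score 22.0) likewise had H3K4me3 in all 7 libraries and H3.3 in D0 (39.9) but not in iPSCs. The peaks assigned to Zeb2 (23.9) and Cyr61 (22.5) had no H3K4me3 in D0 and had H3.3 in iPSCs, and the former lay 1613 kb from its gene. The exonic Runx1 peak (19.2) had H3K4me3 in D3 and D6T- and no H3.3 in iPSCs.

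The highest scores of all were tied to high input. Input density exceeded 3 times the median of all iPSC H3K4me3 peaks at 56 distal peaks (0.323%). All of the 10 highest-scoring distal peaks were among them, with densities of 4.99 to 19.1 times the median. They included the peak 60.3 kb upstream of Ezh2 (score 580), the Gm13225 region (579), the Gm15319 region (412) and the Scaf8 region at the pseudogene transcript Pisd-ps2 (410). Their folds over input were 4.30 to 7.40. Leaving out the 56 peaks moved none of the 7 main shares and differences beyond its interval. Of the 8 peaks with late H3K4me3 and H3.3 in the pluripotent lines, the Gm13225 and Gm13138 regions had densities of 10.8 and 7.85 and the other 6, near Tex14, Bcas2, Dse, Gm347, Mettl4 and Gm3604, of 1.29 to 2.21. At the Bcas2 region (chr3:103019461-103023756, score 112) H3.3 was 95.5 in iPSCs and 30.7 in ESD3 and was called in no other library. At the Gm347 region (score 98.8) it was 90.5 and 19.4, with 7.55 in D12S+, 8.80 in D16S+ and 12.4 in D4.

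Of the 10 highest-scoring distal peaks without high input, a list added after values were seen, 7 had H3K4me3 in all 7 libraries. The peak 16.2 kb upstream of Chd2, which encodes a chromatin remodeller (chr7:80700417-80705161, score 223), had H3K4me3 of 526 in D0 and 682 in D9T-, and of 287 on day 12 and 111 on day 16. The exceptions were the peaks near Zfp534, Sntg1 and Sh3bp4, none of which had H3K4me3 in D0 or D3. Zfp534 (chr4:147068882-147073457, score 220) was first called in D16S+ with 9.49 and had H3.3 of 115 in iPSCs, with 17.6 in D16S+ and 12.3 in ESD3. The Sh3bp4 intron (chr1:90995091-90999754, score 181) had H3K4me3 of 11.3 in D6T- and 78.5 in D9T-, and H3.3 was 6.68 in D0, 121.5 in D9T- and 167 in iPSCs. H3.3 there was also called outside the successful route. It was 110 in D12S- against 92.9 in D12S+, 45.3 in D16S- against 70.4 in D16S+, and 142 in D4. The intronic Sntg1 peak (chr1:8926231-8930750, score 202) had H3K4me3 of 20.9 and 195 in the Thy-1- cells of days 6 and 9, then 147.5 and 157 in the SSEA-1+ cells. H3.3 there was 68.1, 44.5 and 12.0 in the latter 3, and none was called in iPSCs or ESD3.

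Start sites of noncoding genes accounted for a small part of the distal peaks. Within 1 kb of such a start site lay 798 distal peaks (4.60%, 4.29 to 4.92), compared with 1.32% of flanks. They comprised 233 near lincRNAs, 231 near pseudogenes, 209 near processed transcripts, 45 near miRNAs, 38 near snRNAs, 26 near snoRNAs, 13 near other small RNAs and 3 near rRNAs. These 798 were stronger (median score 17.7 against 8.90), more often present in all 7 libraries (21.7% against 5.37%) and more often CpG-rich (34.8%). H3.3 of iPSCs was found at 52.8% of them and at 53.1% of the others. By type, lincRNA peaks had a median score of 26.1 and were present in all 7 libraries in 32.6%, whereas pseudogene peaks had 12.7 and 11.3%. H3.3 of iPSCs covered 61.4% of lincRNA peaks and 39.8% of pseudogene peaks.

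The highest scores of these were at processed transcripts and a pseudogene with high input, 2610005L07Rik (412), Pisd-ps2 (410) and Gm10060 (379). Snhg12, a snoRNA host gene (chr4:131864278-131867147, score 169), had H3K4me3 of 277 in D0, 487 in D6T-, 109 in D12S+ and 63.6 in D16S+. H3.3 there was 166 in D0, 288 in D6T-, 94.4 in iPSCs and 84.7 in ESD3. At Snord65 (chr11:62415456-62420042, score 213) H3.3 was 247 in D0, 306 in D6T-, 128 in iPSCs and 74.9 in ESD3. Both had H3K4me3 in all 7 libraries and H3.3 in 15 of 16. Further members at annotated noncoding RNAs were the telomerase RNA (81.2), RNase P RNA (42.5), vault RNA (28.4) and U6 genes (81.4 and 55.7). The Mir193 region (chr11:79523951-79526515, score 85.8) had lower values at later stages, with H3K4me3 of 472 in D0 and 291 in D3, 252.5 and 136 in Thy-1- cells, 67.5 on day 12 and no peak on day 16. The part of library enrichment, lowest in D16S+, in these values was not tested.

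The converse was measured at the distal peaks of D0. By the same rule D0 had 22195 distal H3K4me3 peaks, of which 4563 (20.6%, 20.03 to 21.1) overlapped an iPSC H3K4me3 peak, compared with 88.2% of 12658 D0 promoter peaks. H3.3 of D0 was present at 56.8% (56.1 to 57.5) of the distal and 56.6% of the promoter peaks of D0. H3.3 of iPSCs was present at 25.3% and 63.2%, and H3.3 of ESD3 at 16.9% and 33.8%. Among the late fractions, H3.3 covered 11.3% of the D0 distal peaks in D16S+ and 30.3% in D16S-. The shares at D0 promoter peaks were 31.3% and 51.2%, so H3.3 peaks were called at fewer regions of both sets in D16S+. The H3.3 list of D16S+ was also shorter, with 34062 peaks against 65454 in D16S-, and its part in these shares was not tested. In each cell type the distal peaks of that cell type had the higher H3.3 share, 53.1% against 25.3% in iPSCs and 56.8% against 23.1% in D0.

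The X chromosome stood apart. It held 348 distal peaks, 2.09 per Mb, against 5.11 to 8.86 per Mb on the autosomes. H3.3 of iPSCs was found at 18.4% of them (14.7 to 22.8), compared with 53.8% on the autosomes (53.1 to 54.6), and H3.3 of D0 at 4.60% compared with 23.4%. H3K4me3 of D0 was found at 26.1% and 27.0%. Promoter peaks on X also had less H3.3 of iPSCs, 9.55% against 65.8%. Median input density was 0.663 on X and 0.926 on the autosomes, and 90 of the 348 held a recurrent sequence. Without the peaks that hold a recurrent sequence, the iPSC H3.3 share was 24.0% (19.2 to 29.6) on X and 57.6% (56.8 to 58.3) on the autosomes. The D0 H3K4me3 share was then 35.3% (29.7 to 41.3) on X and 29.0% (28.3 to 29.7) on the autosomes.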

How the data were processed

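Chromatin was immunoprecipitated for H3.3, H3K4me3 or H3K36me3. Of 46 samples, 30 had peak lists, 1 per group, and 16 were inputs. The authors mapped reads to mm9 with STAR, removed reads with several locations and called peaks with HOMER, histone style, against input (versions not given in the sources used here). The deposited score is a signal, tags per 10 M tags, without input subtraction or length scaling, and the input tags are a signal on the same scale. The fold over input is a ratio the authors required to reach 2 for H3.3 and 4 for the other antibodies. The deposited p-value is Poisson, with a limit of 0.0001.

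Peaks on named chromosomes were annotated by midpoint to all transcript start sites of 22367 protein-coding and 14417 noncoding genes (GENCODE vM1). Overlap meant 1 bp or more. Shares carry 95% Wilson intervals and differences the interval built from both, for counting error only. Without replicate libraries no test was possible. The code (Python 3.11.15, pandas 2.3.3, scipy 1.17.1) was checked on simulated data. The mm9 sequence was read in 300-bp windows. Alternatives were coverage of 50% of the peak, equal numbers of top-scoring peaks (25637 for H3.3, 19633 for H3K4me3), a fold of 4, a distance of 10 kb, and leaving out subsets of peaks. Regions named were the 10 highest scores, the 10 nearest pluripotency and 5 nearest fibroblast genes, 8 each with late H3.3 and H3K4me3 or with H3K4me3 throughout, and 3 for each noncoding type, of which a selection is described. The recurrent sequences, the distal-to-promoter ratio and the centre windows were chosen after the values were seen. The members and lists were chosen with earlier results of these data known.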

Additional observations from a re-analysis of the deposited data

Results flagged for a closer look

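The route difference in the H3.3 share of distal peaks changed sign during reprogramming. The successful fraction was higher by 9.32 percentage points on day 6 and 6.02 on day 9. On day 12 the difference was -8.96 points and on day 16 it was -4.13. The difference between days was not tested, since each fraction had 1 library. The number of H3.3 peaks moved with it, with 82764 in D6T- and 60705 in D6T+, 68394 and 64199 on day 9, but 45922 in D12S+ and 87536 in D12S-, and 34062 and 65454 on day 16. With an equal number of peaks per library the differences were 6.02, 4.18, -3.42 and 1.28 points. The part of the peak numbers in the differences was not tested.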

How the results depend on the processing

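The 7 main values are the iPSC H3.3 share (53.1%), its difference from D0 (30.0 points), the mean route difference (0.564 points), the shares with no earlier H3K4me3 (53.0%), with H3K4me3 in D0 (26.98%) and near a noncoding start site (4.60%), and the octamer difference from flanks (-2.95 points). Of 67 recomputed values, 30 stayed within the interval of the main value and 3 changed sign. Requiring coverage of 50% of the peak gave 43.1% for the iPSC H3.3 share, 27.0 points over D0, a route difference of -0.467, 61.4% with no earlier H3K4me3 and 23.7% with H3K4me3 in D0. Equal numbers of peaks gave 33.7%, 20.2 points, 2.01, 66.3% and 17.2%. H3.3 peaks of at least 4-fold gave 12.0%, -2.49 points and -2.81. Peaks scoring above the median of 9.18 gave 59.4%, 31.1 points, 1.33, 34.8%, 40.2% and 6.74% near a noncoding start site. A distance of 10 kb gave 51.0% with iPSC H3.3, 54.2% with no earlier H3K4me3, 25.9% with H3K4me3 in D0 and -3.40 for the octamer. Without peaks near noncoding start sites the history shares were 54.2% and 25.6%. A distance of 5 kb to a noncoding start site gave 9.95%, and a 500-bp window -4.21 for the octamer. Of the settings chosen after seeing the data, the centre 500 bp gave 49.5% with iPSC H3.3, a route difference of 0.0202, and history shares of 54.6% and 26.1%. Leaving out peaks with a recurrent sequence gave 57.0%, 32.2 points, 50.7%, 29.1%, 4.93% and -1.11. Counting start sites of protein-coding transcripts only (18555 distal peaks), leaving out high input and keeping autosomes only moved none of the values computed beyond its interval. The ratio differences of days 6 and 9 became -0.024 and -0.056 with the centre 500 bp, and those of days 12 and 16 became 0.32 and 0.46. The cause of these changes was not tested. No paired analysis was possible because each group had 1 library. Of the H3K4me3 libraries, D16S+ had the fewest tags (15.8 M) and the lowest share in peaks (3.71%).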

Other observations

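The densest stretches of distal peaks lay on chromosome 13. The megabase from 66000001 to 67000000 held 45 distal peaks and that from 62000001 to 63000000 held 43, among them the Gm3604 peak with H3.3 in iPSCs and ESD3. No peak in either stretch had high input, and the median input density was 1.16 and 1.06 times the median of all iPSC H3K4me3 peaks.

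After Jarid2, genes with many distal peaks were Jmjd1c, a histone demethylase family member, with 29, and Gm17391 with 25, followed by Etl4 and Med13l with 24 each. Msi2, which encodes an RNA-binding protein, had 20.

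Distal peaks near imprinted genes were 38 in number, and 55.3% of them had no earlier H3K4me3, compared with 53.0% of all distal peaks. Rtl1 and Dlk1, which lie in the same imprinted domain, had 6 and 5, and Kcnq1 had 5.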
